A study of Mus musculus with 56 samples.

Results

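The genes described here let a muscle fibre change from glucose to fatty acids as fuel: Pdk4, Ucp3, Plin5, Cpt1b, Angptl4, Fabp3, Cd36, Lpl, Acsl1 and Hadha. They were chosen by name from the genes of fatty acid use after their levels over all 9 groups of these data had been seen. Their values in untreated, sham and smoke mice are given as a description, with no test. Of the 10 genes, 8 had a probe set naming that gene alone, and all 8 passed the filter on dim genes that left 12347 genes for testing. The probe set for Cpt1b, the carnitine transferase at the mitochondrial surface, names other genes as well and was not used, and Acsl1, which activates fatty acids with coenzyme A, was not analysed here.

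Gene expression was measured on arrays in the gastrocnemius, a calf muscle, of 55 female C57BL/6 mice in 9 groups. Untreated mice were sampled at week 0, and sham mice, labelled FA, breathed air nose-only for 2, 12 or 24 weeks. Smoke mice breathed 4% mainstream cigarette smoke in the same way, 2 hours a day on 5 days a week, over the same 3 periods. Mice of the cessation arms breathed smoke for the first 12 weeks. For the next 12 weeks an arm was labelled FA, as the sham mice were, and an arm was labelled RA. The labels define neither abbreviation and give no ages. Each group held 6 mice, except smoke at 12 weeks with 7, where 1 mouse had 2 arrays that were averaged. The untreated and the sham mice at 2 weeks differ in both handling and time, which cannot be told apart. Levels below are log2(intensity + 16) per mouse. Because a whole piece of muscle was measured, fewer cells of a type and less RNA per cell cannot be told apart.

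As background, a fed muscle burns mostly glucose, and fasting or endurance work moves it to fat. Pdk4 phosphorylates and shuts the pyruvate dehydrogenase complex, which holds carbohydrate carbon out of the citric acid cycle. Fatty acids freed by Lpl on the capillary wall enter through Cd36, travel bound to Fabp3, rest in droplets coated by Plin5 and are burned by enzymes that include Hadha. Ucp3, a carrier of the inner mitochondrial membrane, and Angptl4, a secreted inhibitor of Lpl, are well-known targets of the PPAR nuclear receptors, as are Pdk4 and Plin5.

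The promoters of Pdk4, Ucp3 and Plin5 are printed because the levels of these genes lead the account that follows and do not all move together. Each line holds bases upstream of the gene from the RefSeq promoter table of GRCm38.p6, 5′ to 3′ on the gene's strand, and capitals mark AGGTCA, the hexamer read by nuclear receptors, or the CCAAT box, on either strand.
Pdk4: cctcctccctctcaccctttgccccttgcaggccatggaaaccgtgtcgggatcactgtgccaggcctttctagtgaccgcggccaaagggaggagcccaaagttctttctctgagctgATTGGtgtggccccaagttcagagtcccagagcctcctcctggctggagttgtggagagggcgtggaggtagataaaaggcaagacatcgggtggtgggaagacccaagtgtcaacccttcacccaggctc
Ucp3: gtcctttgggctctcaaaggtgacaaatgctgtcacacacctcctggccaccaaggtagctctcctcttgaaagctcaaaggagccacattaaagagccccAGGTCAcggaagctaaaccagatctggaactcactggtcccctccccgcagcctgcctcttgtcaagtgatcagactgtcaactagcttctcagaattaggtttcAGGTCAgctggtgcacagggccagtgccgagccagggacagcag
Plin5: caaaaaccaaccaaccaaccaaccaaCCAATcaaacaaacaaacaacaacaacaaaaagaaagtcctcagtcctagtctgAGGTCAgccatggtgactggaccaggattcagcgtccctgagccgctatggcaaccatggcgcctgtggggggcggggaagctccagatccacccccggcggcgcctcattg
The Pdk4 stretch is chr6:5496279-5496528 on the minus strand, that of Ucp3 is chr7:100472741-100472990 on the plus strand, and that of Plin5 is chr17:56117607-56117798 on the minus strand. The hexamer lay 149 and 44 bases before the table's start site of Ucp3 and 170 bases before that of Plin5, and none lay in the Pdk4 stretch. The CCAAT box was present in the Pdk4 stretch, on the opposite strand, and 224 bases before the start site of Plin5. Among all 32851 promoter windows of the table, 14% held the hexamer and 33.8% the CCAAT box on either strand. The table had windows for 7 of the 10 genes, 9 in all, and none of these held the direct repeat of the hexamer (0.0335% of all windows), the FOXO site TGTTTAC (3.17%) or the E-box CACGTG (6.02%). A match describes letters only.

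Median intensity per array lay between 62.5 and 77.5. All 9 markers of skeletal muscle passed the filter. In 12 arrays the mean of 10 lymphocyte genes lay between 8.14 and 10.73, against at most 6.40 in the other 44. They were 3 of 6 arrays of smoke at 24 weeks, 3 of 6 of cessation RA, 2 of 8 of smoke at 12 weeks, 1 each of untreated, air at 2 weeks, air at 24 weeks and cessation FA, and none of smoke at 2 weeks or air at 12 weeks. The mean of 5 white adipocyte genes ran from 10.87 to 12.33 in the 12 mice with such an array and from 8.74 to 12.20 in the other 43. Leaving out these arrays kept 44 mice, since the mouse with 2 arrays kept its other one, and values without them are given beside the main results. Pdk4, Fabp3 and Lpl lie near the top of the intensity range, whose highest value was 15890, where differences can be compressed.

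Pdk4, the brake on pyruvate dehydrogenase, was lowest in the sham mice at 2 weeks and highest in the smoke mice at 24 weeks, a span of 0.94 on the log2 scale between the group means. In untreated mice its level ran from 12.48 through a median of 13.14 to 13.37 (mean 13.02 ± 0.32 SD, n = 6). In sham mice at 2 weeks it ran from 11.74 through 12.34 to 12.67 (mean 12.29 ± 0.36). In smoke mice at 2 weeks it ran from 12.50 through 12.80 to 12.93 (mean 12.78 ± 0.15). Of the 6 smoke mice, 5 lay above every sham mouse, and the remaining mouse lay above the sham mean. At 12 weeks the sham mice ran from 12.31 through 12.62 to 12.96 (mean 12.64 ± 0.23). The 7 smoke mice at 12 weeks ran from 12.63 through 12.93 to 13.17 (mean 12.92 ± 0.17). Here the groups overlapped, with 3 smoke mice above every sham mouse. At 24 weeks the sham mice ran from 12.66 through 13.07 to 13.14 (mean 12.97 ± 0.19). The smoke mice at 24 weeks ran from 13.13 through 13.24 to 13.33 (mean 13.24 ± 0.075). Again 5 of 6 smoke mice lay above every sham mouse.

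The Pdk4 difference between smoke and air was 0.49 ± 0.14 (SE of the limma fit) at 2 weeks. It was 0.28 ± 0.14 at 12 weeks and 0.27 ± 0.14 at 24 weeks. All 3 differences point the same way, and without the 12 lymphocyte-high arrays they were 0.46, 0.26 and 0.28. The difference of air at 2 weeks from untreated was -0.73 ± 0.14, a level 1.66-fold lower. Air at 24 weeks lay 0.67 ± 0.14 above air at 2 weeks, so the sham groups differed among themselves by more than smoke differed from air at any time. In the order of the 9 group means, the gap between air at 12 weeks and air at 2 weeks was the only step larger than the SD pooled over both groups.

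Ucp3, the uncoupling protein of skeletal muscle mitochondria, followed the Pdk4 pattern with wider spread. Untreated mice ran from 8.63 through 9.76 to 10.12 (mean 9.66 ± 0.54). Sham mice at 2 weeks ran from 8.34 through 8.86 to 9.31 (mean 8.85 ± 0.42). Smoke mice at 2 weeks ran from 9.30 through 9.54 to 9.92 (mean 9.56 ± 0.23). Of the smoke mice, 5 of 6 lay above every sham mouse at 2 weeks. At 12 weeks sham mice ran from 8.46 through 9.06 to 9.67 (mean 9.06 ± 0.39). Smoke mice at 12 weeks ran from 8.78 through 9.43 to 9.88 (mean 9.38 ± 0.38). These groups overlapped almost fully, with 1 smoke mouse above the sham range. At 24 weeks sham mice ran from 9.13 through 9.97 to 10.31 (mean 9.82 ± 0.52). Smoke mice at 24 weeks ran from 9.03 through 10.33 to 10.92 (mean 10.19 ± 0.66). There 3 smoke mice lay above the sham range and 1 below it.

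For Ucp3 the difference between smoke and air was 0.72 ± 0.27 at 2 weeks, 0.31 ± 0.26 at 12 weeks and 0.37 ± 0.27 at 24 weeks. At 24 weeks it was 0.53 without the lymphocyte-high arrays, which include that of the smoke mouse below the sham range. Sham mice at 2 weeks differed from untreated mice by -0.81 ± 0.27, and sham mice at 24 weeks from those at 2 weeks by 0.97 ± 0.27. A dimmer probe set of Ucp3 gave 0.89 at 2 weeks, 0.05 at 12 weeks and 0.17 at 24 weeks for smoke against air, the same signs with less at the later times. No step between neighbours in the order of its 9 group means exceeded their pooled SD.

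**Figure D1:**
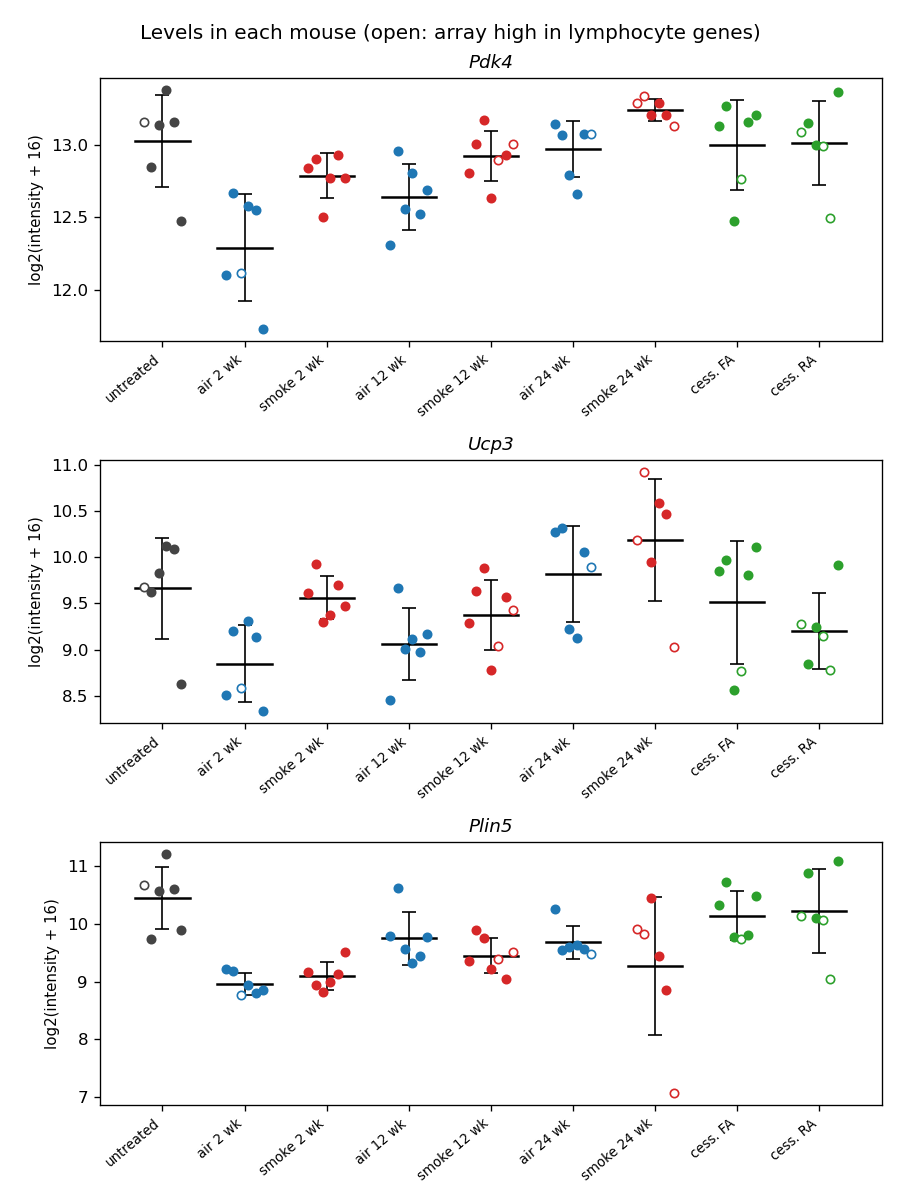
Levels of Pdk4, Ucp3 and Plin5 as log2(intensity + 16), 1 point per mouse in each of the 9 groups, with the group mean (bar) and SD (whiskers); open points are mice with an array high in lymphocyte genes (for 1 mouse of smoke at 12 weeks, 1 of its 2 averaged arrays). Pdk4 and Ucp3 are low in air at 2 weeks and higher in smoke at 2 weeks, while Plin5 is low in both groups at 2 weeks.

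Plin5, the coat protein that ties lipid droplets to mitochondria in muscle and heart, had the largest difference between untreated and sham mice among the 8 genes. Untreated mice ran from 9.73 through 10.59 to 11.21 (mean 10.45 ± 0.54). Sham mice at 2 weeks ran from 8.77 through 8.90 to 9.22 (mean 8.96 ± 0.19). The groups did not overlap, and the difference was -1.49 ± 0.32, a 2.80-fold lower level. Smoke mice at 2 weeks ran from 8.82 through 9.06 to 9.52 (mean 9.09 ± 0.24). Of these 1 of 6 lay above the sham range, so Plin5 stayed near its low sham level in the mice whose Pdk4 and Ucp3 were higher. At 12 weeks the sham mice ran from 9.32 through 9.67 to 10.61 (mean 9.75 ± 0.46). All 6 lay above every sham mouse of 2 weeks, a difference of 0.79 ± 0.32. Smoke mice at 12 weeks ran from 9.04 through 9.39 to 9.89 (mean 9.45 ± 0.30). Their range overlapped that of the sham mice, with 2 of 7 below it. At 24 weeks sham mice ran from 9.48 through 9.59 to 10.25 (mean 9.68 ± 0.28), again without overlap with sham mice of 2 weeks. Smoke mice at 24 weeks ran from 7.07 through 9.64 to 10.46 (mean 9.26 ± 1.20), the widest spread of Plin5 in any group.

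For Plin5 the smoke difference was 0.13 ± 0.32 at 2 weeks, -0.30 ± 0.31 at 12 weeks and -0.42 ± 0.32 at 24 weeks. The value at 24 weeks rested on 1 mouse, replicate 6, whose array was high in lymphocyte genes: without that mouse the difference was 0.02. Without all 12 such arrays it was -0.14, and with the mean of 9 slow fibre markers as a covariate it was -0.01. The probe set used for Plin5 carries a suffix that marks sequence shared with other transcripts. A second, dimmer probe set without the suffix gave -1.35 for sham at 2 weeks against untreated and -0.33 for smoke at 24 weeks, close to the values above.

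Angptl4, the inhibitor of Lpl, had the largest SD of the 8 genes in 8 of the 9 groups, Plin5 having it in smoke at 24 weeks. In untreated mice it ran from 5.81 through 7.63 to 9.45, and in sham mice at 2 weeks from 5.21 through 6.76 to 8.56. Smoke at 12 weeks (mean 7.61 ± 0.87) exceeded air at 12 weeks (mean 6.57 ± 0.49) by 1.04 ± 0.59, with 5 of 7 smoke mice above every sham mouse. Without the lymphocyte-high arrays the difference was 0.54. At 24 weeks the difference was 0.52 ± 0.62, and it turned to -0.16 without those arrays. Of the 7 groups with such arrays, 6 had their highest Angptl4 in a mouse with one; in air at 24 weeks the highest mouse, at 10.07, had none. Over the 44 mice the mean of the white adipocyte markers correlated with Angptl4 at r = 0.55 (rho = 0.43). All 5 white adipocyte markers were higher in smoke than in air at 12 weeks (median 0.70, and 0.32 without the lymphocyte-high arrays). At 24 weeks 4 of 5 were higher (median 0.23, and -0.18 without those arrays). With the mean of these markers as a covariate, the Angptl4 difference between smoke and air was 0.33 at both 12 and 24 weeks, and 0.67 in place of 0.12 at 2 weeks. The probe set also carries the shared-sequence suffix, and a second probe set was below the filter level.

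The genes of fatty acid entry varied less. Lpl, the lipase that frees fatty acids from lipoproteins, had group means between 12.78 and 13.06. Cd36, the fatty acid receptor and transporter, had group means between 11.41 and 11.92. Fabp3, the muscle fatty acid binding protein, had group means between 12.96 and 13.38. The SD within groups reached 0.21 for Lpl, 0.44 for Cd36 and 0.35 for Fabp3, each in smoke at 24 weeks. Fabp3 in untreated mice ran from 13.35 through 13.37 to 13.42, the narrowest range of any group. In sham mice at 2 weeks it ran from 12.78 through 13.01 to 13.13. These groups did not overlap, with a difference of -0.38 ± 0.10. Cd36 differed by -0.30 ± 0.14 and Lpl by -0.17 ± 0.07 in the same comparison, each with 5 of 6 sham mice below every untreated mouse. Smoke against air gave Fabp3 0.13, -0.07 and -0.15 at 2, 12 and 24 weeks (SE 0.10 each), Cd36 -0.07, 0.11 and -0.23 (SE 0.14, 0.13 and 0.14) and Lpl -0.05, 0.05 and -0.05 (SE 0.07 each). Without the lymphocyte-high arrays these were 0.08, 0.01 and -0.09 for Fabp3, 0.03, 0.000152 and -0.31 for Cd36 and 0.01, -0.01 and -0.17 for Lpl. With the slow fibre covariate the differences at 24 weeks were 0.01 for Fabp3, -0.09 for Cd36 and 0.02 for Lpl. For all 3 genes smoke and sham mice overlapped at each time. Other probe sets of these genes did not always give the same size: a second Lpl probe set, less bright, gave -0.50 for sham at 2 weeks against untreated, 0.25 for smoke at 12 weeks and -0.36 for smoke at 24 weeks. The other Cd36 probe sets gave -0.42 and -0.38 for sham at 2 weeks against untreated, and a dim Fabp3 probe set gave -0.25.

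Hadha, the alpha subunit of the mitochondrial trifunctional protein, which runs the later steps of long-chain beta oxidation, ran from 10.35 through 10.46 to 10.61 in untreated mice. Sham mice at 24 weeks ran from 10.32 through 10.50 to 10.61 (mean 10.48 ± 0.14). Smoke mice at 24 weeks ran from 9.32 through 10.12 to 10.51 (mean 10.09 ± 0.42). Of these, 4 of 6 lay below every sham mouse and none above the sham range. The difference of Hadha between smoke and air was 0.15 ± 0.13 at 2 weeks, -0.10 ± 0.12 at 12 weeks and -0.39 ± 0.13 at 24 weeks. Without the 12 lymphocyte-high arrays these were 0.11, 0.01 and -0.28. The value at 24 weeks was -0.23 without smoke replicate 6 and -0.20 with the slow fibre covariate.

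**Figure D2:**
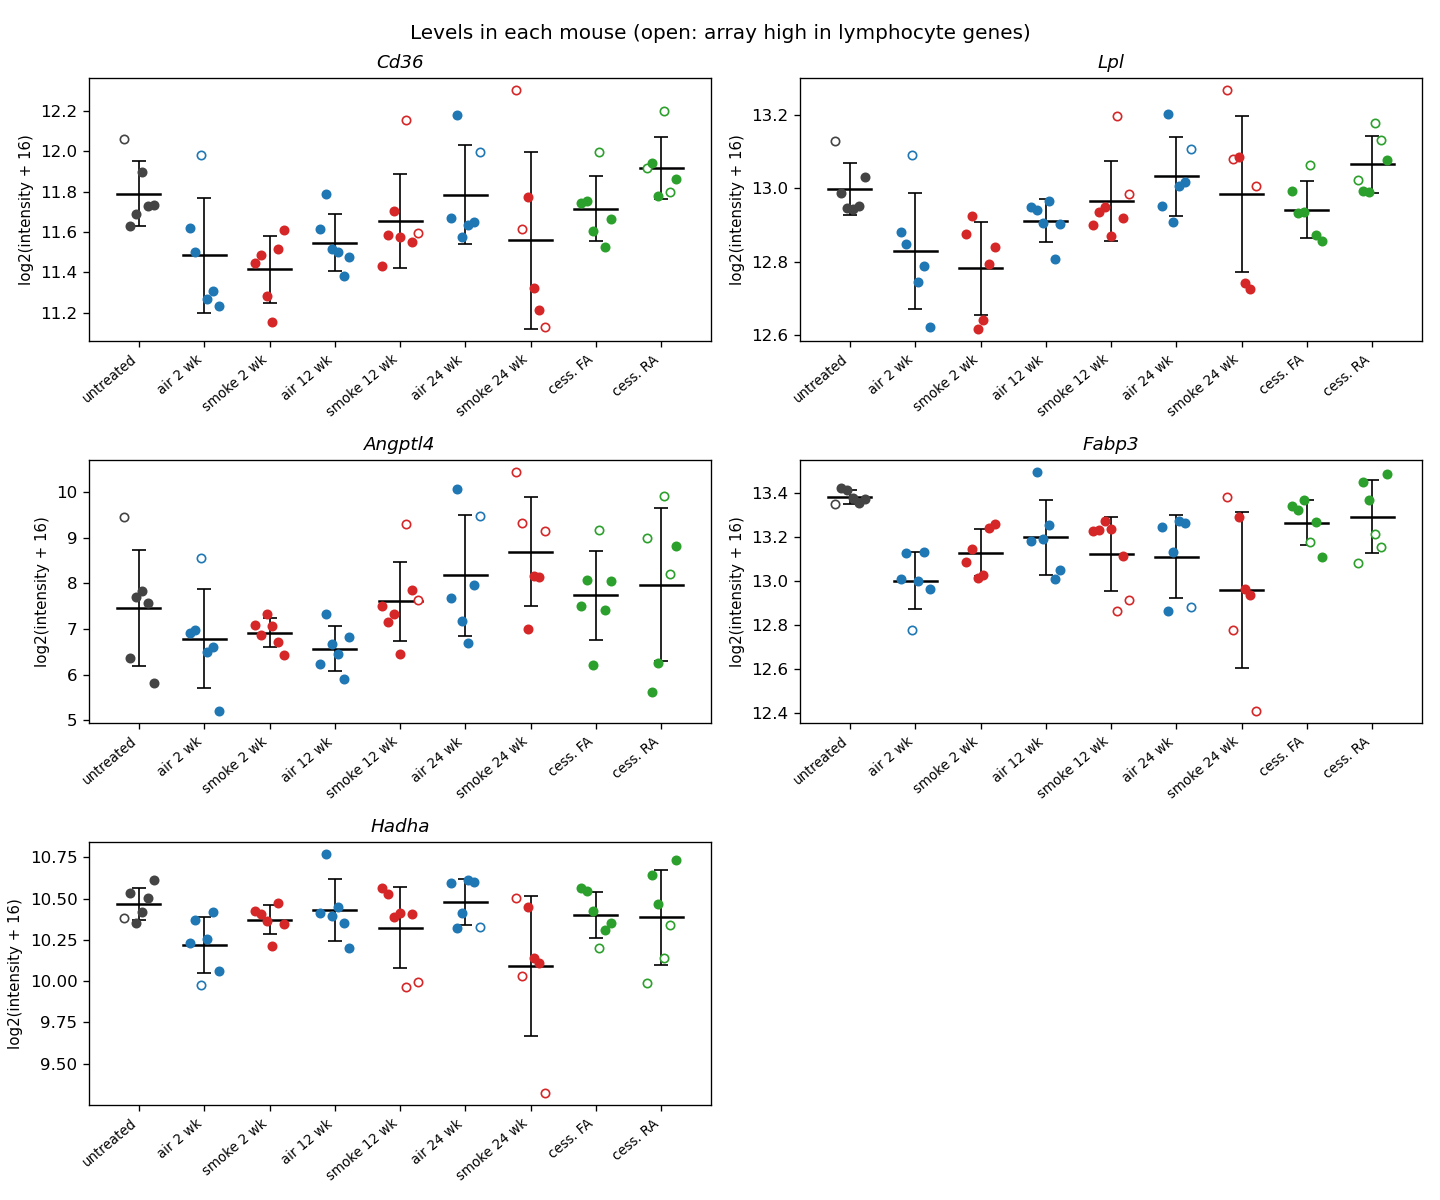
Levels of Cd36, Lpl, Angptl4, Fabp3 and Hadha as log2(intensity + 16), 1 point per mouse, with group mean (bar) and SD (whiskers); open points are mice with an array high in lymphocyte genes. Angptl4, Cd36 and Lpl are often highest in the open points, and Hadha of smoke at 24 weeks reaches down to 9.32.

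As a set, all 8 genes were lower in sham mice at 2 weeks than in untreated mice, with a median difference of -0.52 where the median of all 12347 genes was 0.01. In 2 of 8 (Plin5 and Fabp3) the groups did not overlap, beside 1.66% of all genes. Between sham at 24 and 2 weeks all 8 were higher (median 0.49, all genes 0.03), and 1 of 8 did not overlap (1.33% of all genes). Between sham at 12 and 2 weeks 7 of 8 were higher (median 0.20), and 1 of 8 did not overlap (1.26% of all genes); all 8 were higher without the lymphocyte-high arrays. Both of these single genes were Plin5. These comparisons share the sham mice of 2 weeks, so their opposite signs are not separate evidence.

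The 8 genes did not all differ in one direction between smoke and air. At 2 weeks 6 of 8 were higher in smoke than in air (median 0.13), at 12 weeks 5 of 8 (median 0.08) and at 24 weeks 3 of 8 (median -0.10). Without the lymphocyte-high arrays the counts were 8, 6 and 2 of 8. In none of the 8 did smoke and sham mice separate without overlap at any time, where 0.381% of all genes did at 2 weeks, 0.0972% at 12 weeks and 0.713% at 24 weeks. Pdk4 and Ucp3 had positive differences at all 3 times, and Plin5, Fabp3 and Hadha went from positive at 2 weeks to negative at 12 and 24 weeks. Without the lymphocyte-high arrays Fabp3 and Hadha were at 0.01 at 12 weeks.

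**Figure D3:**
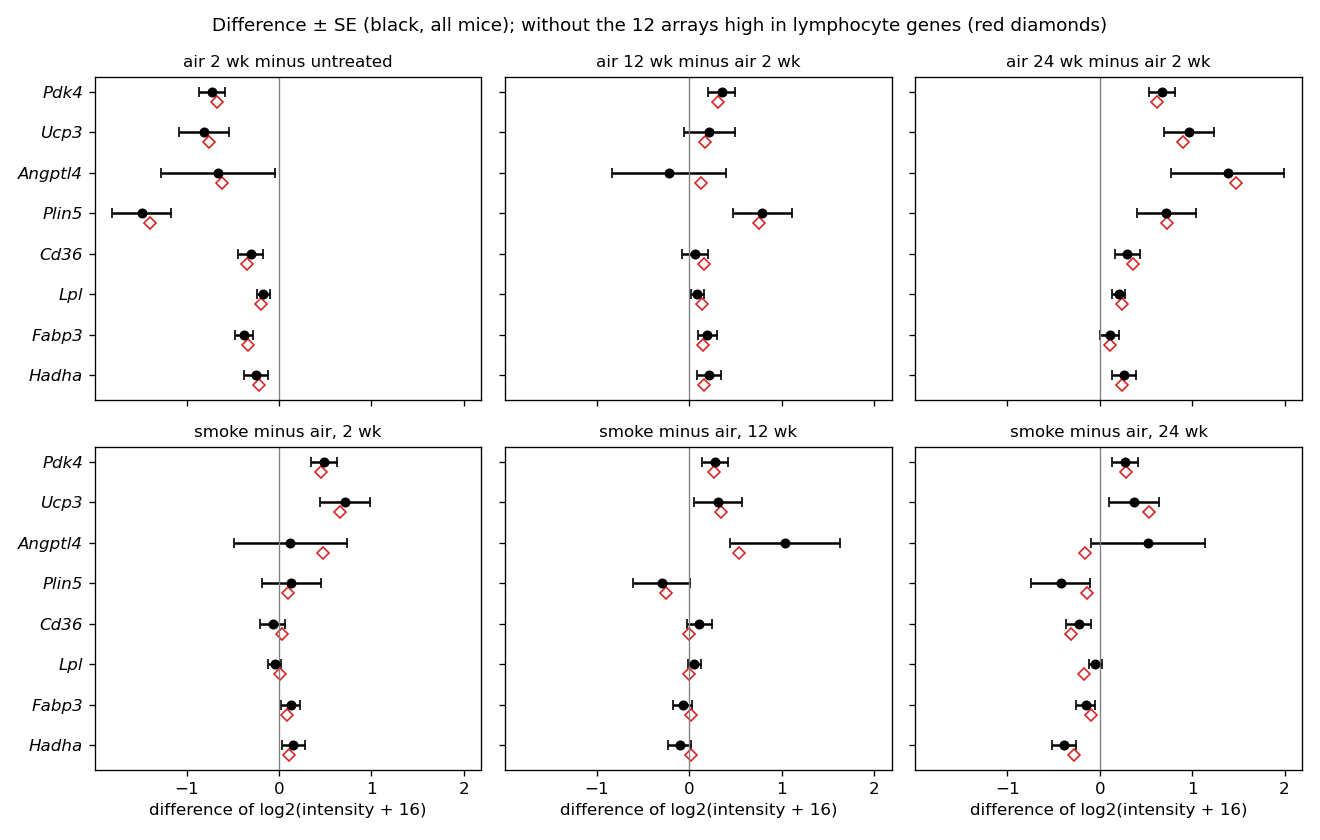
Difference of log2(intensity + 16) between group means for the 8 genes in 6 comparisons (black points, with the SE of the limma fit), and the same without the 12 arrays high in lymphocyte genes (red diamonds). All black points lie below 0 for air at 2 weeks against untreated, and Pdk4 and Ucp3 lie above 0 in all 3 smoke comparisons.

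Slow fibre markers differed alongside several of these comparisons, with none of the 9 passing limma in any of them, and their part was not tested beyond the covariate below. All 9 were lower in sham at 2 weeks than in untreated mice (median -0.26), all 9 were higher in sham at 12 and 24 weeks than at 2 weeks (medians 0.42 and 0.48) and all 9 were lower in smoke than in air at 24 weeks (median -0.47). The mean of the 9 ran from 11.84 to 12.59 in sham mice at 24 weeks and from 10.65 to 12.56 in smoke mice. With that mean as a covariate, the Plin5 difference of sham at 24 and 2 weeks was 0.33 in place of 0.72 that of Fabp3 -0.04 in place of 0.11 and that of Hadha 0.09 in place of 0.26. Between sham at 12 and 2 weeks Plin5 was at 0.39 in place of 0.79, Fabp3 at 0.04 in place of 0.20 and Hadha at 0.03 in place of 0.21. Between sham at 24 and 2 weeks Pdk4 at 0.64 and Ucp3 at 0.90 were nearly as large as without the covariate, and so was the Plin5 difference of sham at 2 weeks from untreated mice, at -1.27. Endothelial markers were also lower in sham at 2 weeks than in untreated mice in 8 of 9 (median -0.26), and all 9 were higher in sham at 12 and 24 weeks than at 2 weeks (medians 0.19 and 0.21). At 24 weeks all 9 were lower in smoke than in air (median -0.23, 1 passing limma, beside 0.47% of all genes). Smoke mice at 24 weeks were also below the FA arm in all 9 (median -0.25, 1 passing, beside 3.55% of all genes). They were below the RA arm in 8 (median -0.31, 3 passing, beside 2.34% of all genes).

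The rule that chose the genes named a pattern of untreated, sham and smoke mice. It took the levels of the genes in all 9 groups, cessation arms included. The cessation comparisons were fitted with limma over all 12347 genes, with Benjamini-Hochberg adjustment. Their p-values, that of Ucp3 included, are not independent of that choice and are given as a description. All of these comparisons except cessation RA against FA also use the smoke or sham mice of 24 weeks. The genes were chosen with earlier results of these data known, so the p-values of cessation RA against FA are not taken as independent either. Ucp3 alone of the 8 passed, and in 1 comparison: it was higher in smoke at 24 weeks than in cessation RA, by 0.99 ± 0.27 or 1.98-fold (adjusted p = 0.0382), where 2.34% of all genes passed. Cessation RA mice ran from 8.78 through 9.19 to 9.92 (mean 9.20 ± 0.41). Of the 6 smoke mice at 24 weeks, given above, 5 lay above every cessation RA mouse. The second Ucp3 probe set differed by 0.89. The call was lost without the 12 lymphocyte-high arrays (difference 1.00, adjusted p = 0.124), with 3 mice left in each group. It was also lost with no filter on dim genes (adjusted p = 0.0541), with the mean of its probe sets (0.0658), with the slow fibre covariate (0.0505), with arrays outside the main run of identifiers left out (0.0710) and when these 2 groups were fitted alone (0.534). Leaving out 1 mouse at a time gave differences from 0.84 to 1.22 and adjusted p from 0.00655 to 0.114, and ended the call in 8 of 12 cases: without smoke replicates 2 (0.110), 4 (0.0611) or 5 (0.0678), or cessation RA replicates 1 (0.0529), 2 (0.114), 3 (0.0772), 4 (0.0531) or 5 (0.0923).

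Plin5, Fabp3, Hadha, Cd36 and Lpl had the opposite sign in that comparison. Of the 8 genes 5 had an unadjusted p under 0.05, beside 1952 of all 12347 genes. Plin5 differed by -0.96 ± 0.32 (adjusted p = 0.101), Fabp3 by -0.33 ± 0.10 (adjusted p = 0.0680) and Hadha by -0.29 ± 0.13 (adjusted p = 0.240). Cd36 differed by -0.36 ± 0.14 (adjusted p = 0.167), with 5 of 6 smoke mice below every cessation RA mouse, and Lpl by -0.08 ± 0.07 (adjusted p = 0.599). None of these 5 passed with all mice. With the adipocyte covariate Cd36 (-0.40, adjusted p = 0.0318) and Fabp3 (-0.31, adjusted p = 0.0498) passed. With the lymphocyte covariate Plin5 (-0.93, adjusted p = 0.0475) and Fabp3 (-0.32, adjusted p = 0.0148) passed. The share of all genes passing with either covariate is not given here. Without the 12 lymphocyte-high arrays Fabp3 (-0.37, adjusted p = 0.0259) and Hadha (-0.38, adjusted p = 0.0393) passed, where 3.3% of all genes did, and Plin5 (-1.11) and Cd36 (-0.43) did not (adjusted p = 0.0592 for each). With the slow fibre covariate Fabp3 differed by -0.17 (adjusted p = 0.375), Hadha by -0.11 (adjusted p = 0.839) and Plin5 by -0.55 (adjusted p = 0.481). Cd36 then differed by -0.22 (adjusted p = 0.592) and Lpl by -0.02 (adjusted p = 0.984). All 9 slow fibre markers were lower in smoke at 24 weeks than in cessation RA (median -0.47). Plin5 passed without smoke replicate 3 (-1.20, adjusted p = 0.0239) or cessation RA replicate 5 (-1.20, adjusted p = 0.0333), and differed by -0.52 without smoke replicate 6 (adjusted p = 0.407).

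Against cessation FA, 0 of the 8 genes passed by limma for smoke at 24 weeks, where 3.55% of all genes did. At an unadjusted p under 0.05 there were 4 of the 8, beside 3425 of all 12347 genes. Cessation FA mice had Plin5 levels from 9.73 through 10.07 to 10.72, and the smoke mice differed by -0.88 ± 0.32 (adjusted p = 0.0855). Without smoke replicate 6 that difference was -0.44 (adjusted p = 0.470), and without smoke replicate 3 it was -1.12 and passed (adjusted p = 0.0271). Fabp3 differed by -0.30 ± 0.10 (adjusted p = 0.0698) and Ucp3 by 0.68 ± 0.27 (adjusted p = 0.113). Pdk4 did not pass against either arm, at 0.24 ± 0.14 for FA (adjusted p = 0.248) and 0.23 ± 0.14 for RA (adjusted p = 0.437). Cessation FA mice had Pdk4 levels from 12.48 through 13.14 to 13.26, and cessation RA mice from 12.50 through 13.04 to 13.36, so both arms reached past the top of the sham mice at 24 weeks.

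Against sham mice at 24 weeks, 0 of 8 passed by limma in cessation FA, where 0.081% of all genes did. In cessation RA 0 of 8 passed, where 1.76% of all genes did. At an unadjusted p under 0.05 there were 0 of 8 in FA, beside 865 of all 12347 genes. In RA there was 1 of 8, beside 1689 of all genes. Plin5 was 0.46 ± 0.32 above the sham level in FA (adjusted p = 0.841) and 0.54 ± 0.32 in RA (adjusted p = 0.462), and 0.97 in RA without the lymphocyte-high arrays (adjusted p = 0.0582). Ucp3 in RA differed by -0.62 ± 0.27 (adjusted p = 0.290). Between the arms 0 of 8 passed, where 0.0243% of all genes did. At an unadjusted p under 0.05 there were 0 of 8, beside 512 of all 12347 genes. These comparisons share their smoke or sham mice and are not independent of each other.

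Across mice the 8 genes formed more than one pattern. Over the 44 mice left without the lymphocyte-high arrays, all groups together, 27 of the 28 pairs of genes had a positive Pearson's r, with a median of 0.49. These mice share arrays, groups and the same muscle, and the joint movement was itself part of the choice of genes, so the values are a description. Pdk4 and Ucp3 were among the closest pairs (r = 0.85, Spearman's rho = 0.86), with r = 0.83 when the 2 mice farthest from the median of Pdk4 were left out and 0.90 after group means were removed. Ucp3 and Angptl4 followed at 0.79. Cd36 and Lpl had r = 0.87, Fabp3 and Hadha 0.78, and Plin5 with Cd36 0.75 and with Fabp3 0.72.

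Pdk4 and Plin5 had r = 0.59, while Ucp3 and Plin5 had 0.29, Ucp3 and Fabp3 0.02 and Angptl4 and Fabp3 -0.12. So Pdk4, Ucp3 and Angptl4 varied together. Pairs among Plin5, Cd36, Lpl, Fabp3 and Hadha had r from 0.54 to 0.87. Pdk4 with Plin5 lay within that range, so these genes were not cleanly set apart from Pdk4. Pdk4 was linked to Plin5 more closely than Ucp3 was. The mean of the slow fibre markers correlated with Lpl and Hadha at r = 0.70 each, with Fabp3 at 0.63, Cd36 at 0.58 and Plin5 at 0.46. It correlated with Pdk4 at 0.14, Angptl4 at -0.06 and Ucp3 at -0.12. The mean of the endothelial markers gave 0.80 for Lpl, 0.74 for Hadha and 0.71 for Cd36, against 0.31 for Pdk4 and 0.08 for Ucp3. Removing group means lowered Plin5 with Cd36 to 0.57 and Plin5 with Lpl from 0.59 to 0.30. It lowered Fabp3 with Cd36 from 0.56 to 0.27, and Pdk4 with Plin5 from 0.59 to 0.49.

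**Figure D4:**
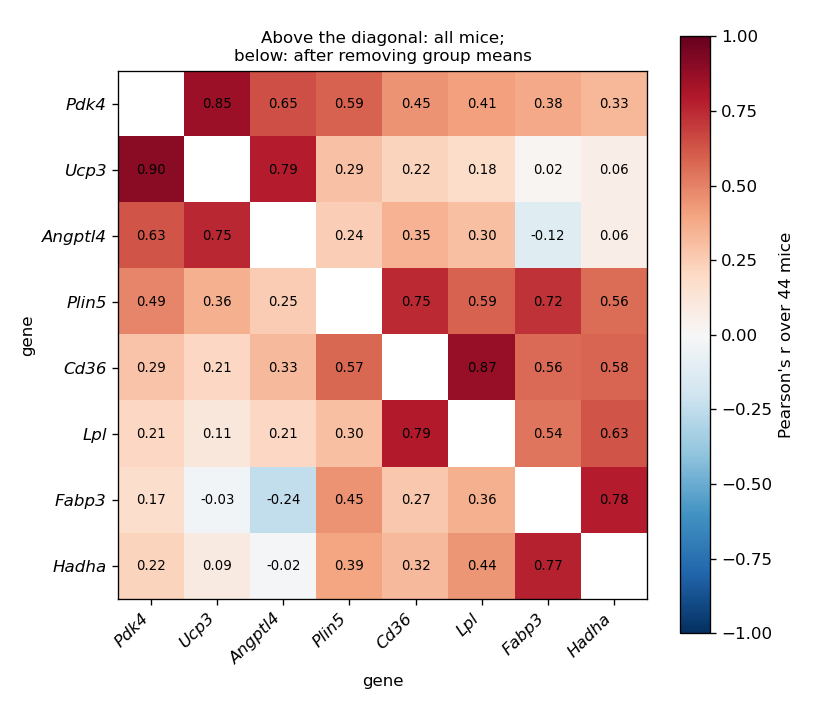
Pearson's r between the log2 levels of each pair of the 8 genes over the 44 mice left without the arrays high in lymphocyte genes, above the diagonal over all mice and below it after subtracting each group's mean. Pdk4, Ucp3 and Angptl4 form a block of high values (0.65 to 0.85 above the diagonal), and Cd36 with Lpl and Fabp3 with Hadha stand out among the other genes.

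**Figure D5:**
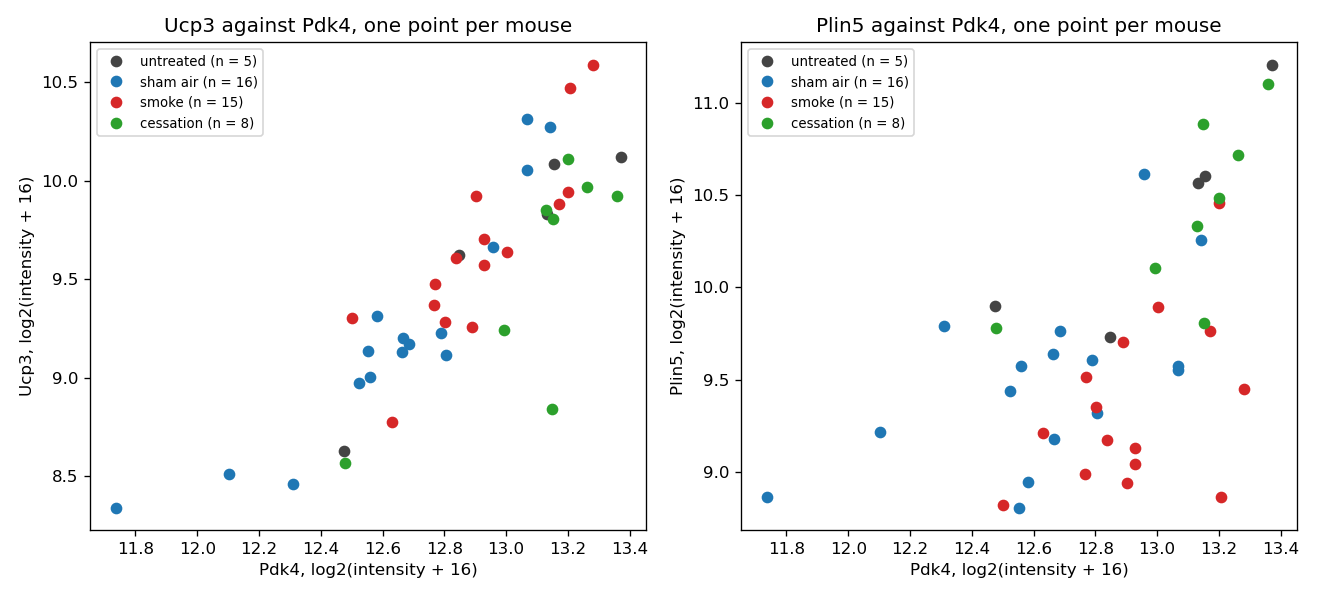
Level of Ucp3 (left) and Plin5 (right) against Pdk4, both as log2(intensity + 16), 1 point per mouse for the 44 mice left without the arrays high in lymphocyte genes, coloured by untreated, sham air, smoke or cessation. Ucp3 rises with Pdk4 (r = 0.85), and Plin5 scatters more widely (r = 0.59), with most smoke mice in its lower part.

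The genes whose levels were most like Pdk4 over the same 44 mice were Asb2 (r = 0.77), Mlycd (0.76), Lgals4 (0.73), Trim63 (0.71) and Fbxo32 (0.67), leaving out members. Mlycd breaks down malonyl-CoA, the inhibitor of carnitine transfer, and Trim63 and Fbxo32 are the muscle ubiquitin ligases known from atrophy. For Ucp3 they were Gpam (0.63), Trim63 (0.63), Tnks (0.63), Lgals4 (0.62) and Asb2 (0.62), so Trim63, Lgals4 and Asb2 stood in both lists. For Plin5 they were Slc25a34 (0.92), Chkb (0.89), Pank1 (0.85), Adgrl4 (0.84) and Twf2 (0.83, from a probe set with the shared-sequence suffix), none of them in the other lists. Pank1 makes coenzyme A from pantothenate, and Chkb is the choline kinase named with Cpt1b by the probe set left out above.

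Other genes of fatty acid and pyruvate use were few among those passing limma: of 73 listed, 68 were measured. Their lists were chosen with earlier results of these data known. The counts and p-values of these genes are therefore a description, not a separate test. In sham at 2 weeks against untreated mice 0 of 68 passed, where 0.518% of all genes did, and 19 of 68 had a positive difference. At an unadjusted p under 0.05 there were 12 of the 68, beside 912 of all 12347 genes. The lowest p was that of Acot2, a mitochondrial acyl-CoA thioesterase, at -0.55 ± 0.14 (adjusted p = 0.0514). Without the 12 lymphocyte-high arrays 5 of 67 passed, all lower, where 1.98% of all genes passed. Smaller differences ran one way in the 21 measured genes of the carnitine shuttle and beta oxidation: 0 of 21 were above 0 in this comparison, with a median of -0.16. In sham at 12 against 2 weeks 21 of 21 were above 0 (median 0.13), and at 24 against 2 weeks 20 of 21 (median 0.17). In either comparison 0 of the 68 genes passed, where 0.0081% and 0.219% of all genes did. Over the 68 genes, 7 and 13 had an unadjusted p under 0.05, beside 767 and 1462 of all 12347 genes. Without the lymphocyte-high arrays 2 and 8 of the 67 passed, all higher, where 0.939% and 2.87% of all genes passed.

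Of the 21 beta oxidation genes 18 were above 0 for smoke at 2 weeks (median 0.08), 6 at 12 weeks (median -0.03) and 1 at 24 weeks (median -0.22), and 20, 11 and 4 without the lymphocyte-high arrays. At 2 weeks 0 of all 12347 genes passed by limma (255 at an unadjusted p under 0.05), so that 0% were called, and 0 of the 68 had an unadjusted p under 0.05. At 12 weeks 0 of 68 passed, where 0.0081% of all genes did. At an unadjusted p under 0.05 there was 1 of 68, beside 230 of all 12347 genes. At 24 weeks 34 of the 68 had an unadjusted p under 0.05, beside 3044 of all 12347 genes. By limma 1 of 68 passed, where 0.47% of all genes did. That gene, Klf15, a transcription factor of fasting muscle, fell by 0.78 ± 0.19 (adjusted p = 0.0397). Its difference was -0.55 without the lymphocyte-high arrays, where 0 of 67 and 0.4% of all genes passed. With 1 mouse left out at a time the count ran from 0 to 16 and changed in all 12 cases. The share of all genes passing in those fits is not given here. Acadl, the long-chain acyl-CoA dehydrogenase, differed by -0.32 ± 0.08 (adjusted p = 0.0572). The 1 beta oxidation gene above 0, named here after its values were seen, was Cpt1a, the form of carnitine transferase most known from liver, at 0.93 ± 0.26 (adjusted p = 0.0595) and 0.74 without the lymphocyte-high arrays.

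In the other groups of genes for smoke against air at 24 weeks, 1 of 10 lipid droplet and lipolysis genes, 1 of 10 genes of the pyruvate dehydrogenase side and 2 of 12 known regulators of Pdk4 were above 0, with medians of -0.19, -0.12 and -0.29. Without the lymphocyte-high arrays 1, 3 and 3 were above 0, with medians of -0.13, -0.03 and -0.13. Uptake and activation genes had 5 of 12 above 0 (median -0.03), and uncouplers and ketone body genes 0 of 3. Without those arrays 2 (median -0.08) and 1 were above 0. Pdk4 had a positive difference where 10 of its 12 listed regulators had negative ones in RNA level, with 1 of the 12 passing limma. Any link between them was not tested. Over all 12347 genes 44.8% had a positive difference there.

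For smoke at 24 weeks against cessation FA, 3 of the 68 passed, all lower, a share near the 3.55% of all genes that passed. At an unadjusted p under 0.05 there were 19 of the 68, a share near that of all genes (3425 of 12347). Pdp2, a phosphatase that reverses the action of Pdk4, fell by 0.55 ± 0.13 (adjusted p = 0.0124). Vldlr, a lipoprotein receptor that helps Lpl, fell by 0.33 ± 0.09 (adjusted p = 0.0342). Lpin1, a phosphatidate phosphatase and coactivator, fell by 0.28 ± 0.08 (adjusted p = 0.0443). Without the lymphocyte-high arrays these differences were -0.53, -0.21 and -0.16, and 1 of 67 passed, a gene that was higher, where 1.9% of all genes passed. Against cessation RA, 17 of the 68 had an unadjusted p under 0.05, beside 1952 of all 12347 genes. Vldlr alone of the 68 passed, beside 2.34% of all genes. It fell by 0.38 ± 0.09 (adjusted p = 0.0162), and its difference was -0.31 without the lymphocyte-high arrays. In cessation RA against sham at 24 weeks 6 of 68 had an unadjusted p under 0.05, beside 1689 of all 12347 genes. The 1 of 68 that passed, beside 1.76% of all genes, was the fatty acid transporter Slc27a4. It fell by 0.56 ± 0.12 (adjusted p = 0.00694), and its difference was -0.37 without the lymphocyte-high arrays. In cessation FA against sham at 24 weeks 0 of 68 passed (6 at an unadjusted p under 0.05, beside 865 of all 12347 genes). Between the arms 0 of 68 passed (1 at an unadjusted p under 0.05, beside 512 of all genes).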

How the data were processed

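Gastrocnemius RNA of 55 mice was amplified, labelled with biotin and read on 56 arrays, per the labels' protocols. The deposited values are intensity per probe set on a linear scale; the authors' summarisation and normalisation are not given in the sources used here. Negative values reach -20.0, so values were floored at -15, 16 was added and log2 was taken. Of 45037 probe sets, 34945 name 1 gene in the platform annotation, 932 several and 9160 none; names were taken only from the first kind, and a gene was represented by its probe set of highest mean. Genes below the 40th percentile (5.71) were left out. The 2 arrays of 1 mouse were averaged. All 9 groups entered 1 limma fit (version 3.58.1, R 4.3.3; residual degrees of freedom 46); adjusted p-values are Benjamini-Hochberg over 12347 genes, with a threshold of 0.05, and the script was tested on simulated data. Samples are separate mice by their labels; array number limits the precision.

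The members and the lists were chosen with earlier results of these data known. Named genes are the members, the passing genes of each list (up to 4) or the 1 of lowest p, and the 5 genes most like Pdk4, Ucp3 and Plin5. Alternatives changed the pseudocount, filter, probe set rule, scaling, variance model, weights, covariates (lymphocyte, adipocyte or slow fibre markers) and arrays used. The lymphocyte cut of 8.5 left out 11 arrays; 1 array just below it was added after seeing the data, giving 12. Acsl1 and Cpt1b were not analysed. Promoters came from RefSeq's table of GRCm38.p6.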

Additional observations from a re-analysis of the deposited data

Results flagged for a closer look

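In 72 sets of 1 gene in 1 group, 5 had a highest or lowest mouse set apart from the rest of its group by Dixon's test at the 95% level; chance marks about 1 in 20 such groups. Ucp3 in untreated replicate 6 was 8.63, the lowest of its group, where the next mouse was at 9.62. Plin5 in sham air at 12 weeks replicate 2 was 10.61, the highest, with the next at 9.79. Plin5 in sham air at 24 weeks replicate 1 was 10.25, the highest, with the next at 9.64. Cd36 in smoke at 12 weeks replicate 5 was 12.15, the highest, with the next at 11.70. Lpl in the same mouse was 13.20, the highest, with the next at 12.98. The array of that mouse is 1 of the 12 high in lymphocyte genes; the arrays of the other mice named here are not.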

How the results depend on the processing

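The median differences of the 8 measured members moved by less than the spread between mice under every alternative tried (102 values). Their sign was not always kept. For smoke against air the median turned positive at 24 weeks with the slow fibre covariate and negative at 12 weeks with the adipocyte covariate. No called result changed sign, but untested differences of members did, among them Plin5 in smoke against air at 24 weeks, 0.02 without smoke replicate 6. Without the 12 lymphocyte-high arrays 7 did: for smoke against air, Angptl4 at 24 weeks (-0.16), Fabp3, Hadha and Lpl at 12 weeks (0.01, 0.01 and -0.01) and Cd36 and Lpl at 2 weeks (0.03 and 0.01), and Angptl4 between sham at 12 and 2 weeks (0.13). The counts of genes past the threshold did move, and the cause was not tested. Among the alternatives, the share of all genes passing is known only for the fit without the 12 arrays. The counts are therefore not read as results about the members. For the members in smoke at 24 weeks against cessation RA the count of 1 became 0 with no filter, with the mean of all probe sets, with the slow fibre covariate, with arrays outside the main run of identifiers left out and in a fit of the compared groups alone. It became 2 without the 11 or 12 lymphocyte-high arrays, and 3 with array weights, the lymphocyte covariate or the adipocyte covariate. Leaving out 1 mouse at a time gave 0 to 3, and 0 to 2 for the members against cessation FA, where the count was 0.

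Other fuel genes past the threshold were as follows. The share of all genes passing is again known only for the fit without the 12 arrays, so these counts are not read as results about fuel genes. In that fit the count over all genes moved too, from 27 to 352 for sham at 24 against 2 weeks. For sham at 2 weeks against untreated the count of 0 became 13 with array weights, 5 without the 11 or 12 lymphocyte-high arrays, 2 with the adipocyte covariate, and 1 with a pseudocount of 64, quantile normalization, the filter at the 60th percentile, a trended robust eBayes, the lymphocyte covariate or a fit of the compared groups alone; mice left out in turn gave 0 to 1. For sham at 12 against 2 weeks 0 became 4 with array weights and 2 without the 11 or 12 arrays, and at 24 against 2 weeks 16 and 8. For smoke against air at 24 weeks 1 became 12 with array weights, 6 with the adipocyte covariate, 5 with the filter at the 60th percentile, and 0 with no filter, with the lymphocyte or slow fibre covariate, without the 11 or 12 arrays, without arrays outside the main run and in a fit of these groups alone; mice left out in turn gave 0 to 16. For smoke at 24 weeks against cessation FA 3 became 8 without arrays outside the main run, 1 with no filter, with the lymphocyte or adipocyte covariate or without the 12 arrays, and 0 with the slow fibre covariate or in a fit of these groups alone; mice left out in turn gave 1 to 13. Against cessation RA 1 became 4 with the lymphocyte covariate, 3 with array weights or without the 11 or 12 arrays, 2 with the adipocyte covariate, and 0 with the slow fibre covariate or in a fit of these groups alone; mice left out in turn gave 0 to 7. For cessation RA against sham at 24 weeks 1 became 3 with array weights or the lymphocyte covariate, 2 without the 11 or 12 arrays or with the slow fibre covariate, and 0 with the filter at the 60th percentile or in a fit of these groups alone; mice left out in turn gave 1 to 2. No paired analysis was possible because the replicate numbers only name mice in accession order and the labels pair none across groups. The files used give no detection calls, so a dim gene's precision is unknown.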
